A study of Mus musculus with 7 samples.

Results

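The miR-148 family of microRNAs (miRNAs), with miR-148a, miR-148b and miR-152, and the miR-130 family, with miR-130a, miR-130b, miR-301a and miR-301b, were followed through 7 small RNA libraries of mouse testis. All listed arms of these 7 hairpins were taken by name, whatever their values, which gave 11 of the 331 listed miRNAs (3.32%). The miR-148 family held 6 of these arms and the miR-130 family 5. Of the hairpins, 4 (miR-148a, miR-148b, miR-152 and miR-130b) were listed with both arms, so that 7 members were 3p arms and 4 were 5p arms.

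All libraries came from testes of the outbred CD1 mouse strain, and each condition was 1 library of RNA below 100 bp. T6 and T10 were uncultured testes of prepuberal mice at 6.5 and 10.5 days post-partum (dpp; the age labels read 6 and 10 days). T6-12K and T6-12A were explants of 6.5 dpp testes, and T10-12K and T10-12A of 10.5 dpp testes, kept for 12 days at a gas-liquid interface on agarose at 34ºC under air with 5% CO2, with KSR (K) or AlbuMAX I (A) as the supplement of the medium. The methods for total RNA give 2 explants for each analysis, and no number for the small RNA libraries in particular. TAD was uncultured adult testis at 2 months of age, and the number of testes or mice behind it was not given in the sources used here. A whole testis holds germ cells and somatic cells together, so that fewer cells of a type and less RNA per cell cannot be told apart.

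A miRNA is cut from a hairpin as a short duplex, whose strands are named the 5p and the 3p arm after the side of the hairpin they come from, and usually 1 arm is kept in the silencing complex while the other is lost. The kept arm finds its messenger RNAs mainly through the seed, which is bases 2 to 8 from its 5′ end, and miRNAs that share a seed are grouped as a family because they can bind the same messages. DNMT1, the enzyme that maintains DNA methylation, is a known target of miR-148a and miR-152, while the miR-130 family is known for targeting regulators of the TGF-beta pathway.

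The mature sequences of the 3p arms are shown first because the seed defines the families, and because members that differ by few bases were counted separately. The RefSeq table for build GRCm38.p6 held 10 of the 11 members, the missing one being miR-301b-3p. Capitals mark the seed, the sequences are printed 5′ to 3′, and the prefix mmu (mouse) is left out in the rest of the text.
mmu-miR-148a-3p: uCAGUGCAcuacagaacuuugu
mmu-miR-148b-3p: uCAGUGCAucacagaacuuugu
mmu-miR-152-3p: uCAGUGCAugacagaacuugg
mmu-miR-130a-3p: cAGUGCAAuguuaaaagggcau
mmu-miR-130b-3p: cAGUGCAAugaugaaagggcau
mmu-miR-301a-3p: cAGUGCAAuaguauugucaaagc
The 3 arms of the miR-148 family carried the seed CAGUGCA and the 3 of the miR-130 family the seed AGUGCAA, which is the same run AGUGCA moved by 1 position. This run of 6 letters, read in the direction of the miRNA alone, was in the seed of 7 of the 288 listed miRNAs with a sequence (2.43%), namely these 6 members and miR-350-5p. Outside the seed the members differed little within the miR-148 family. Counting from 1 at the 5′ end, with the base of the first-named miRNA first, miR-148a-3p and miR-148b-3p differed by C9U and U10C, miR-148a-3p and miR-152-3p by C9U, U10G and U20G, and miR-148b-3p and miR-152-3p by C10G and U20G. miR-130a-3p and miR-130b-3p differed by U11A and A13G, whereas miR-301a-3p differed from them at 10 and 11 of 22 positions. How many mismatches the alignment allowed was not given in the sources used here, so an exchange of reads between miR-148a-3p, by far the most abundant, and miR-148b-3p or miR-152-3p could not be measured.

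The 5p arms bring other seeds, and those with both arms listed are shown because the balance between arms is described further on.
mmu-miR-148a-5p: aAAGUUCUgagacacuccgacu
mmu-miR-148b-5p: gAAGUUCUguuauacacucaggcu
mmu-miR-152-5p: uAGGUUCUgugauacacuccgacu
mmu-miR-130b-5p: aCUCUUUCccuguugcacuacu
miR-148a-5p and miR-148b-5p shared the seed AAGUUCU, while miR-152-5p and miR-130b-5p each had a seed of their own. In the genome (build GRCm38, RefSeq, with the same positions in GENCODE M21) the miR-148b hairpin lay in an intron of Copz1 at chr15:103285125-103285221 and the miR-152 hairpin in an intron of Copz2 at chr11:96850393-96850465, both on the plus strand, and these host genes encode paralogous subunits of the COPI vesicle coat. The miR-301a hairpin lay in an intron of Ska2 at chr11:87113004-87113089, also on the plus strand. The miR-130b and miR-301b hairpins lay 257 bases apart on the minus strand, at chr16:17124061-17124142 and chr16:17124400-17124496, in an intron of 2610318N02Rik. miR-148a (chr6:51269812-51269910) and miR-130a (chr2:84741115-84741178), both on the minus strand, overlapped no other annotated gene.

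The deposited values were turned back into whole reads. Listed miRNAs took 7075528 to 13397407 reads in each prepuberal or cultured library and 1628770 in TAD, and levels are given as reads per 1000000 of these (CPM). Mature miRNAs are of nearly equal length, and no length correction was made. Where values of cultured explants are given in pairs, the KSR library comes first and the AlbuMAX I library second. miR-10b-5p was the most abundant miRNA in every library, with 31.2 to 54.4% of the reads. With 1 library per condition there was no replicate and no test, and a difference of at least 2-fold is used as a rule of size. Intervals are 95% exact intervals and cover counting error only. Of the 11 members, 6 had at least 50 reads in every library, against 155 of all 331 listed miRNAs. The other 5, which are miR-152-3p, miR-130b-3p, miR-130b-5p, miR-148b-5p and miR-301b-3p, fell below it in at least 1 library, where counting error is wide.

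miR-148a-3p was the dominant member everywhere. It stood at 23356 CPM in T6 and 22969 in T10, at 18590 and 19184 after culture from 6.5 dpp, at 22145 and 16437 after culture from 10.5 dpp, and at 13868 in the adult. It ranked between the fifth and the eighth of all listed miRNAs in every library. It held 91.1 to 95.2% of the reads of all 11 members, and its CPM spanned 1.68-fold over the 7 libraries, while its deposited values spanned 2.77-fold.

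miR-130a-3p came next in the uncultured prepuberal testis, with 986 CPM in T6 and 547 in T10. The explants held 370 and 645 CPM from 6.5 dpp and 360 and 404 from 10.5 dpp, and the adult testis held 173. T6 was the highest and TAD the lowest, and among the cultured libraries T6-12A stood above the other 3. miR-301a-3p, which has the same seed, was at 330 CPM in T6 and 264 in T10, at 125 and 132 in the explants from 6.5 dpp, at 151.5 and 123 in those from 10.5 dpp, and at 284 in TAD. Here the adult library lay between the prepuberal ones, and all cultured libraries were below the 3 uncultured ones. The counting intervals of T6-12K, T6-12A and T10-12A overlapped, as did those of T10 and TAD.

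miR-148b-3p showed the same arrangement as miR-301a-3p, with 392 to 444 CPM in the uncultured testes (418 in TAD) against 176 and 230 in explants from 6.5 dpp and 282 and 224 in those from 10.5 dpp. miR-152-3p was at 76.5 CPM in T6, at 76.4 in T10 and at 26.4 in TAD, while the explants held 44.7 and 62.6 from the younger age and 46.8 and 51.8 from the older. T6 and T10 could not be told apart for it, and TAD, with 43 reads, was the lowest.

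The remaining 3p arms were rare. miR-130b-3p had 39.5 and 27.2 CPM in the starting testes and 25.2 in TAD, and after culture 9.76 and 16.6 from 6.5 dpp and 11.6 and 13.7 from 10.5 dpp. Its neighbour on the chromosome, miR-301b-3p, had 6.73 and 6.34 CPM in the starting testes and 16.6 in TAD, and after culture 1.51 and 2.32 from 6.5 dpp and 4.10 and 4.61 from 10.5 dpp, on 15 to 90 reads. Both were lower in every cultured library than in T6 and T10, but in TAD miR-301b-3p was the highest of all libraries and miR-130b-3p was not.

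Among the 5p arms miR-148a-5p was the most abundant, at 327 CPM in T6, 345 in T10, 155 to 243 in culture and 143 in TAD, and miR-152-5p at 66.4 and 62.0 in the starting testes, 27.2 to 31.6 in culture and 31.9 in the adult. miR-130b-5p held 9.35 CPM in T6, 10.7 in T10, 2.72 to 6.02 in culture and 27.0 in TAD. miR-148b-5p held 8.83 and 7.76 CPM before culture, 1.21 to 6.58 after it, and was listed at 0 in TAD.

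**Figure D1:**
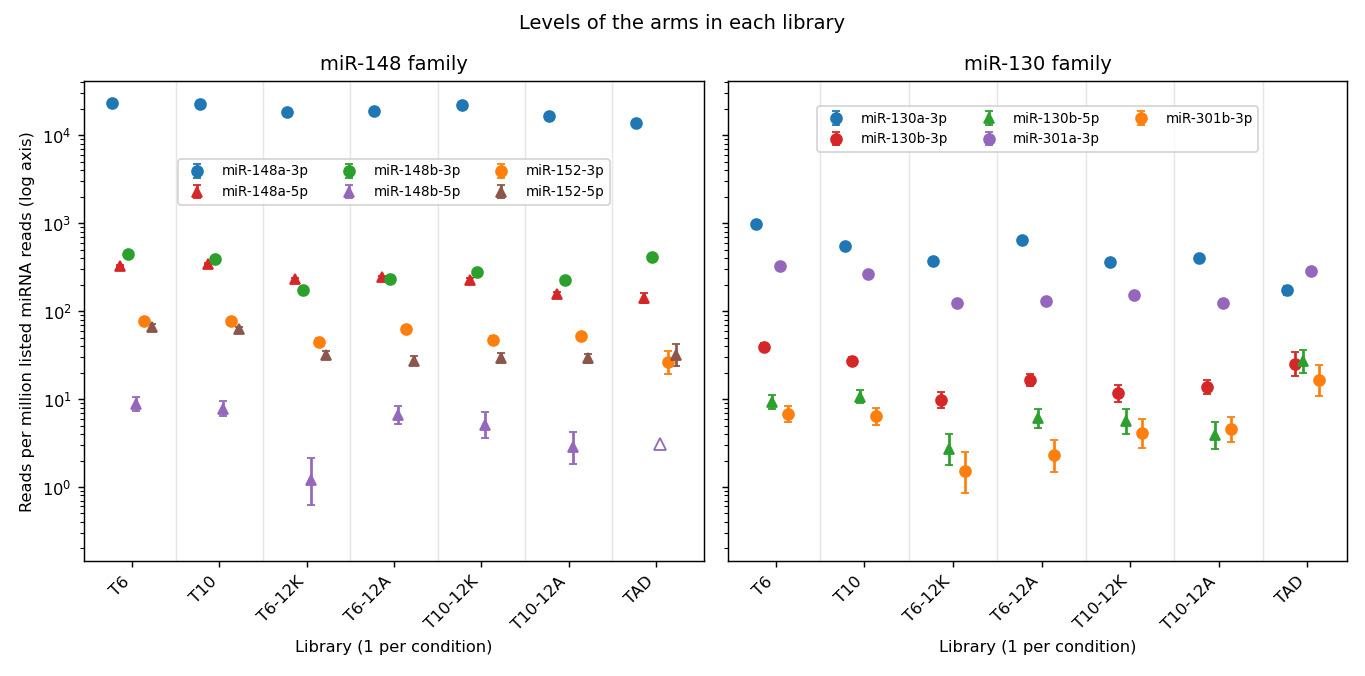
Level of each of the 11 arms in each library, in CPM on a log axis, with circles for 3p arms, triangles for 5p arms and bars for the 95% exact interval of counting error. miR-148a-3p lies above all other members in every library, miR-130a-3p (986 CPM in T6) falls below miR-301a-3p in TAD (173 against 284 CPM), and the open triangle marks miR-148b-5p, listed at 0 in TAD, at the limit of 5 reads.

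The make-up of each family was compared next, since the share of a member among its family is taken within 1 library and does not depend on how libraries are scaled. In the miR-130 family miR-130a-3p led in the prepuberal and cultured testis and miR-301a-3p led in the adult. miR-130a-3p made up 72.4% of the 3p reads of the family in T6 and 64.8% in T10, 73.0 and 81.0% in the explants from 6.5 dpp and 68.3 and 74.0% in those from 10.5 dpp, but 34.6% in TAD (31.4 to 38.0, 281 of 811 reads). miR-301a-3p made up 24.3, 31.2, 24.8, 16.6, 28.7 and 22.6% in the same order of libraries, and 57.0% in TAD (53.5 to 60.4). The adult library was the only one of the 7 in which miR-301a-3p outnumbered miR-130a-3p, with 1.64 reads for each read of miR-130a-3p (1.41 to 1.91) against 0.205 to 0.482 in the other 6. The rarer members also took larger shares in TAD, 5.06% for miR-130b-3p against 1.93 to 3.22% elsewhere and 3.33% for miR-301b-3p against 0.291 to 0.846%.

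After 12 days of culture the order within the family remained that of the prepuberal testis. The share of miR-130a-3p was higher in the AlbuMAX I library than in the KSR library at both ages, by 81.0 against 73.0% from 6.5 dpp and by 74.0 against 68.3% from 10.5 dpp, and the intervals did not overlap at either age. At both ages the KSR library was the closer to its starting testis.

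In the miR-148 family the balance between miR-148a-3p and miR-148b-3p moved in opposite directions in culture and in the adult. There were 52.6 reads of miR-148a-3p for each read of miR-148b-3p in T6 and 58.6 in T10. The explants held 106 and 83.5 from 6.5 dpp and 78.6 and 73.2 from 10.5 dpp, all above both starting libraries, and 33.2 in TAD (30.7 to 35.8), below every other library. miR-148b-3p thus made up 1.86 and 1.67% of the 3p reads of the family in T6 and T10, 0.935 to 1.34% in the cultured libraries and 2.92% in TAD. miR-152-3p held 0.184 to 0.326% in all libraries. It was lower with KSR (0.238% in T6-12K and 0.208% in T10-12K) than with AlbuMAX I (0.322% in T6-12A and 0.310% in T10-12A) at both ages, and the AlbuMAX I values lay near those of T6 and T10, 0.320 and 0.326%.

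**Figure D2:**
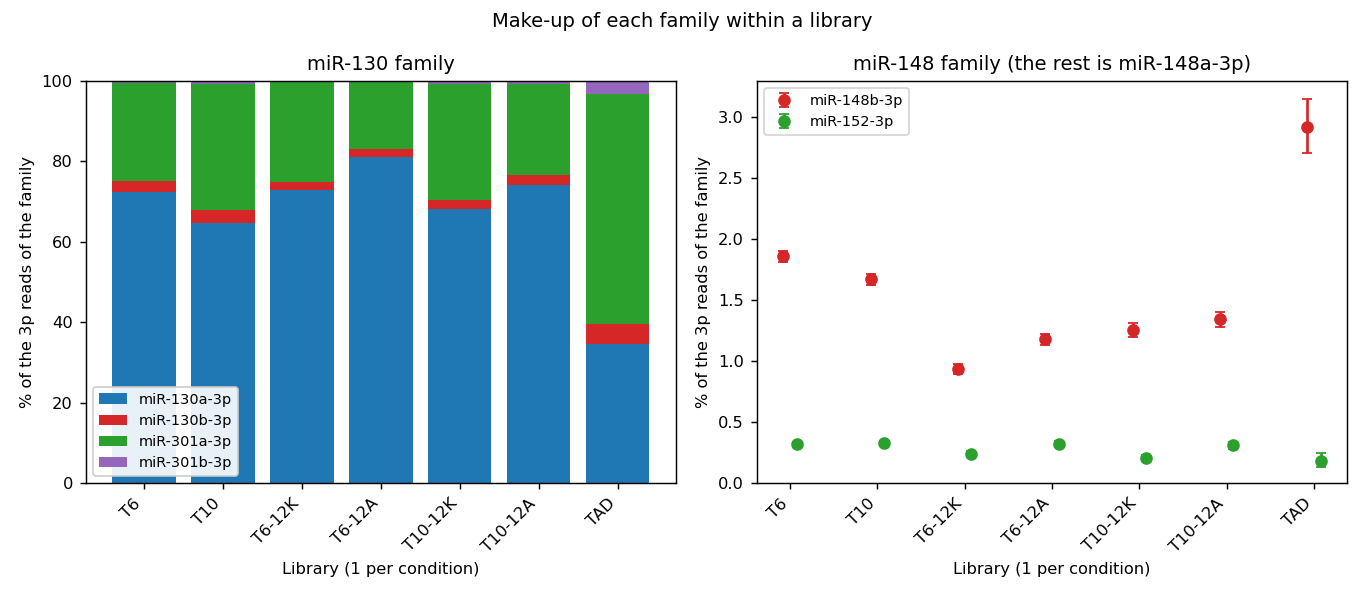
Share of each member among the 3p reads of its family, in percent, for each library. In the stacked bars miR-130a-3p falls from 64.8 to 81.0% in the other 6 libraries to 34.6% in TAD, and the points, with 95% exact binomial intervals, show miR-148b-3p at 2.92% in TAD and at most 1.34% in the cultured libraries.

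The 5p and 3p arms of a hairpin also come from the same library, and their balance is likewise independent of scaling. The hairpins differed by a wide margin in this balance. miR-148a and miR-148b were read almost entirely from the 3p arm, with 0.934 to 1.48% and 0 to 2.78% of reads on the 5p arm. For miR-152 both arms took a large part of the reads, with 30.3 to 54.7% on the 5p arm.

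Of the 3 hairpins with both arms above 0 in TAD, miR-130b had the largest change of balance in the adult. The 5p arm took 19.1% of its reads in T6 and 28.2% in T10, 21.8 and 26.6% after culture from 6.5 dpp, 32.8 and 22.1% after culture from 10.5 dpp, and 51.8% in TAD (40.7 to 62.7, 44 of 85 reads). The interval for TAD overlapped that of T10-12K alone (24.6 to 41.9). The ratio of 5p to 3p reads was 3.57-fold higher in TAD than at the mean level of T6 and T10, a log2 change of 1.84, and 5 of the 49 listed hairpins with both arms measured in that comparison changed more, against a median size of 0.59 on the log2 scale.

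For miR-152 the 5p share was 46.5% in T6 and 44.8% in T10, and it was lower in all cultured libraries, with 41.4 and 30.3% from 6.5 dpp and 38.6 and 35.9% from 10.5 dpp. TAD held 54.7% (44.2 to 65.0, 52 of 95 reads), an interval that overlaps those of T6 and T10. The lowest value, in T6-12A (27.4 to 33.3), lay below the interval of T6 (44.2 to 48.7), and 23 of 68 hairpins changed more between T6-12A and T6. The intervals of T6-12K and T6 overlapped, as did those of T10-12K and T10. In these 2 comparisons 47 of 66 and 42 of 65 hairpins changed more than miR-152, and 41 of 66 did between T10-12A and T10.

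For miR-148b the 5p arm took 1.95% of reads in T6 and 1.94% in T10, 0.682 and 2.78% in the explants from 6.5 dpp and 1.77 and 1.25% in those from 10.5 dpp. It was listed at 0 in TAD, where a value of 0 can hold up to 4 reads, since the lowest value above 0 in the whole table was 5 reads. Taken at that limit of 5 reads beside 681 of the 3p arm, the share would be 0.729%. This is below those of T6 and T10 but above the 0.682% of T6-12K. The ratio of 5p to 3p was 4.17-fold higher in T6-12A than in T6-12K, and only 1 of 67 hairpins differed more between these libraries, but the value of T6-12K rests on 12 reads of miR-148b-5p.

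**Figure D3:**
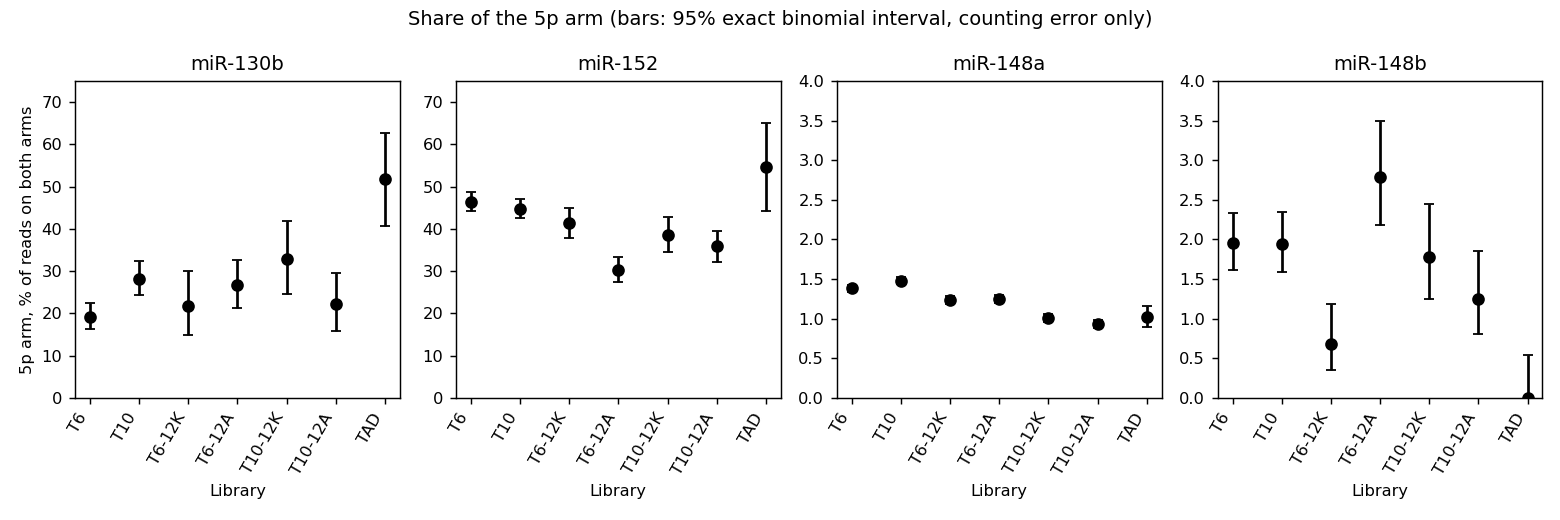
Share of the 5p arm among the reads on both arms of each hairpin, in percent, for each library, with 95% exact binomial intervals; the axes of miR-148a and miR-148b end at 4%. The share of miR-130b is 51.8% in TAD against 19.1 to 32.8% elsewhere, and that of miR-152 is lower in the 4 cultured libraries than in T6 and T10.

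The libraries of the prepuberal ages were then compared on the CPM scale. No member differed by at least 2-fold between T10 and T6, where 11.0% of 326 listed miRNAs were higher and 4.29% lower by that rule. The largest differences were in the miR-130 family. miR-130a-3p was lower in T10 by 0.85 on the log2 scale (interval -0.89 to -0.81), or 1.80-fold (-1.08 and past 2-fold with the trimmed mean of M-values), and only 22 of 326 miRNAs were further down, whereas miR-130b-3p stood at -0.54 and miR-301a-3p at -0.33. The 3 most abundant arms of the miR-148 family stayed close, with -0.02 for miR-148a-3p, -0.18 for miR-148b-3p and 0.08 for miR-148a-5p.

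The adult testis was compared with the mean of T6 and T10, which separates mature testis from testis before and at the start of meiosis. In the miR-130 family, miR-130a-3p was 4.44-fold lower in TAD (log2 -2.15, interval -2.33 to -1.98), while miR-301a-3p (-0.07, interval -0.21 to 0.07) and miR-130b-3p (-0.41, interval -0.89 to 0.05) were within 2-fold. miR-130b-5p, with 27.0 CPM against 10.0, and miR-301b-3p, with 16.6 against 6.54, were higher by 1.43 and 1.34 on the log2 scale in CPM and by 0.73 and 0.64, within 2-fold, in the values as deposited, and were below 0 only in unscaled reads, of which TAD had the fewest. In the miR-148 family, miR-152-3p (-1.53), miR-148a-5p (-1.23) and miR-152-5p (-1.01, interval -1.43 to -0.61) were at least 2-fold lower in CPM. miR-148b-5p was at least 2.70-fold lower, taking TAD at the limit of 5 reads. miR-148a-3p stood at -0.74 and miR-148b-3p at 0.00.

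In all, 2 of 11 members were at least 2-fold higher in TAD and 5 at least 2-fold lower, beside 21.5% higher and 36.3% lower of the 331 miRNAs, and the median of the members was -0.74 against -0.41 for all listed miRNAs. In the values as deposited none was at least 2-fold higher, beside 10.9%, and 7 were at least 2-fold lower, beside 52.0%, with miR-148a-3p (-1.44) and miR-130b-3p (-1.10) now among them and a median of all miRNAs of -1.12. Without miR-10b-5p in the totals miR-148a-3p was also past 2-fold (-1.07). The call of miR-152-5p lay at the limit and was lost with median-of-ratios scaling (-0.82). The turn between miR-130a-3p and miR-301a-3p, the lower ratio of miR-148a-3p to miR-148b-3p and the shift between the arms of miR-130b need no scaling.

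miRNAs that mark meiotic and later germ cells (the miR-34b/c and miR-449 arms, 6 of 6 listed) differed between the same libraries. Their summed level was 74.0 and 164 CPM in T6 and T10, 614 to 1972 in culture and 25799 in TAD, and 1 of them, miR-34b-3p, was at 0 in T6. Of the leukocyte markers 2 of 5 were listed, with 10.8 and 12.2 CPM in T10 and T6, 5.54 to 10.2 in the cultured libraries, where miR-150-5p was at 0 in 3 of 4, and 45.4 in TAD. The 2 endothelial markers summed to 181 and 190 CPM in the starting libraries, 124 to 249 in the cultured ones and 405 in TAD. Of the muscle markers 1 of 3 was listed, at 23.3 and 30.4 CPM in the starting libraries, 2.60 to 25.9 in the cultured ones and 28.2 in TAD, and the liver marker was not listed. Of the 5 erythroid markers, all listed, miR-451a and miR-144-3p were at 0 in all 4 cultured libraries. The summed level was 887 to 5125 CPM in culture and 2216 to 3364 in the uncultured libraries. This sum was nearly all miR-486a-5p and miR-486b-5p, whose levels lay near each other in every library. Whether the same reads were counted for both was not tested. In T6-12K these arms were at 2554 and 2571 CPM, above the 1678 and 1670 of T6. In T6-12A, T10-12K and T10-12A they were below their starting testis, at 442 to 762 CPM. The part of these cell types in the levels of the members was not tested.

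The cultured explants were then compared with the testes they started from. Culture and the 12 days of added age cannot be told apart, since no uncultured testis of the same final age was among the libraries. Of the 11 members, 10 were lower in all 4 cultured libraries than in both T6 and T10 on the CPM scale, as were 57.7% of all 331 miRNAs, and none was higher, beside 11.2%. The exception was miR-130a-3p, whose 645 CPM in T6-12A exceeded the 547 of T10. The study discarded miRNAs with less than 50 reads. Among the 10, miR-301b-3p reached 50 reads only in T6 (90) and T10 (85). It may be listed through these libraries alone, so that its lower values in culture are no separate result. The CPM scale carries a general shift in culture, since the median of all miRNAs was -1.21 and -0.63 against T6 and -0.76 and -0.78 against T10, and -0.22 to -0.20 with median-of-ratios scaling. With that scaling 3 members were lower in all cultured libraries (miR-301a-3p, miR-130b-3p and miR-130b-5p, beside 27.8% of all miRNAs) and miR-148a-3p was higher in all of them (beside 22.1%). The direction of miR-148a-3p in culture therefore depends on the scaling.

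Against T6, 8 members were at least 2-fold lower in T6-12K, beside 57.1% of 329 miRNAs, and 4 in T6-12A, beside 37.9% of 330. Against T10, 2 members were at least 2-fold lower in T10-12K, beside 40.1% of 329, and 5 in T10-12A, beside 41.4% of 331. With median-of-ratios scaling the counts of lower members were 3, 1, 0 and 0, beside 23.7, 26.7, 23.7 and 27.2% of miRNAs. The 8 and the 4 in CPM, and the 3 and the 1 with that scaling, include miR-301b-3p, which may be listed through T6 and T10 alone. No member was at least 2-fold higher in any of these comparisons in CPM, beside 10.9, 12.4, 8.21 and 10.6% of miRNAs. The medians of the members, -1.40, -0.64, -0.63 and -0.99, lay near those of all miRNAs given above.

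These 4 comparisons share their starting libraries in pairs, and the members are given side by side. miR-148a-3p stayed within 2-fold, at -0.33 and -0.28 against T6 and at -0.05 and -0.48 against T10 in CPM. With median-of-ratios scaling it stood at 0.66, 0.15, 0.50 and 0.09 in the same order. miR-152-5p was the only member at least 2-fold lower in all 4, at -1.07, -1.29, -1.08 and -1.10 in the same order, and with median-of-ratios scaling it stood at -0.08, -0.85, -0.53 and -0.53. miR-130b-3p stood at -2.02, -1.25, -1.23 and -0.99, and with median-of-ratios scaling at -1.03, -0.82, -0.68 and -0.41. miR-301a-3p stood at -1.40, -1.32, -0.80 and -1.10 in CPM, and with median-of-ratios scaling at -0.41, -0.89, -0.25 and -0.53. miR-130a-3p stood at -1.41, -0.61, -0.60 and -0.44, so that only T6-12K was past 2-fold for it in CPM. With median-of-ratios scaling it stood at -0.43, -0.18, -0.05 and 0.13, and none was past 2-fold.

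**Figure D4:**
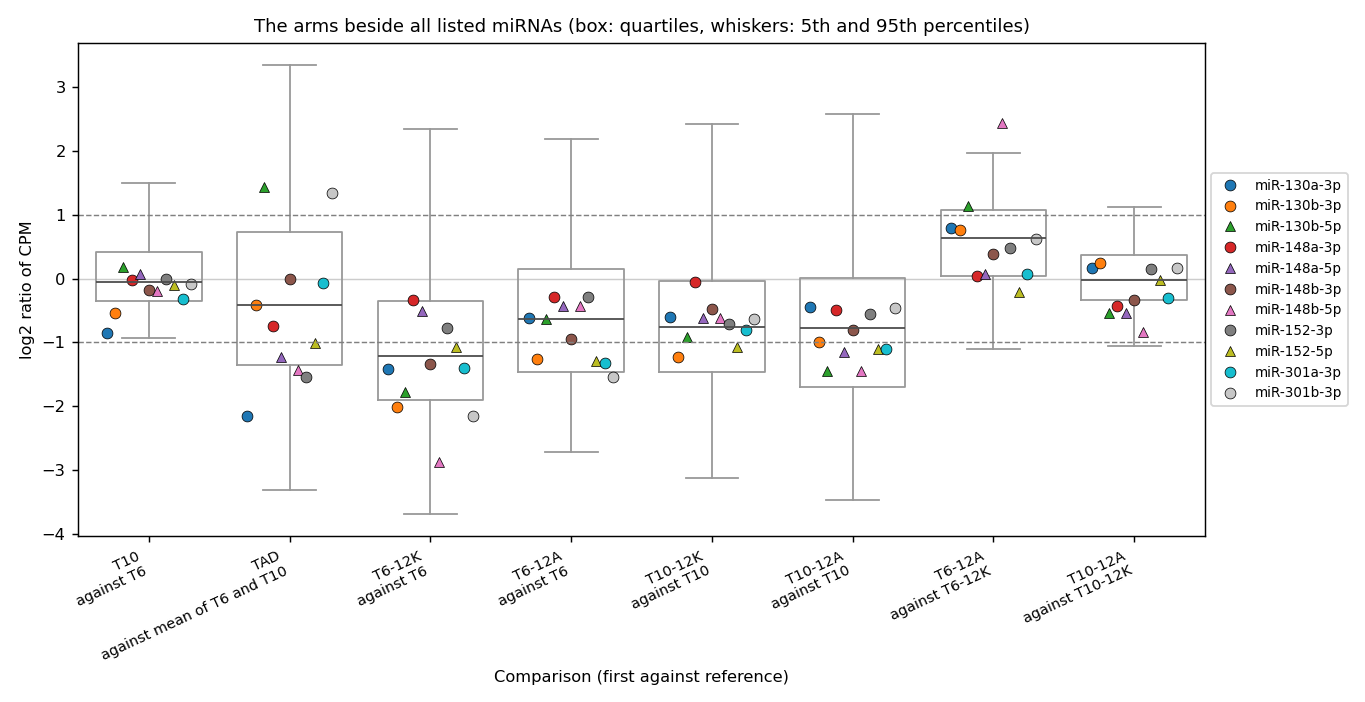
log2 ratio of CPM of the 11 arms in the 8 comparisons (coloured points), beside all listed miRNAs (boxes with quartiles, whiskers from the 5th to the 95th percentile), with dashed lines at 2-fold. In the adult miR-130a-3p (-2.15) and miR-130b-5p (1.43) lie furthest apart, against the starting testes all members lie below 0 in culture, where the boxes of all miRNAs lie mostly below 0 too, and miR-148b-5p is drawn at its limit in TAD.

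The supplements were compared at each starting age. The paper reports that explants on AlbuMAX had a smaller volume than those on KSR and often aberrant nuclei. Its cell counts therefore used KSR samples alone. The part of this state of the explants in the ratios was not tested. From 6.5 dpp, 2 members were at least 2-fold higher in T6-12A than in T6-12K, miR-148b-5p (2.45, interval 1.55 to 3.46, on 71 against 12 reads) and miR-130b-5p (1.15, interval 0.48 to 1.85, on 65 against 27 reads), beside 27.4% of 321 miRNAs, and none was lower, beside 5.92%. The call of miR-130b-5p was lost with median-of-ratios scaling (0.59). miR-130a-3p stood at 0.80 and miR-130b-3p at 0.76, while miR-148a-3p (0.05), miR-301a-3p (0.08) and miR-148a-5p (0.07) were nearly level, and the median of all miRNAs was 0.64. From 10.5 dpp no member differed by 2-fold between T10-12A and T10-12K, where 5.64% of 319 miRNAs were higher and 5.64% lower. The lowest values were those of miR-148b-5p (-0.84), miR-148a-5p (-0.55), miR-130b-5p (-0.53) and miR-148a-3p (-0.43), and miR-130a-3p stood at 0.16.

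Other miRNAs linked to these by seed or by target were set beside the families. miR-350-5p, the only other listed miRNA whose seed holds the shared run AGUGCA, was rare, with 9.28 CPM in T6, 9.85 in T10, 0.805 to 3.11 in culture and 3.07 in TAD. It was at least 2-fold lower in TAD than in its reference, beside 36.3% of all miRNAs. The same held in all 4 cultured libraries, beside 37.9 to 57.1%. Its value in TAD was the limit of 5 reads, where counting error is wide. Counting error is wide in the cultured libraries too, at 0.805 to 3.11 CPM. Since the study discarded rare miRNAs, miR-350-5p may be listed through T6 and T10 alone. Its lower values in culture and in TAD are therefore no separate result. The miR-29 family, known to target the de novo DNA methyltransferases, had 2 of its 7 arms listed. miR-29a-3p was at 18.8 CPM in T6 and 25.6 in T10, at 43.7 and 86.1 in explants from 6.5 dpp, at 138 and 222 in those from 10.5 dpp, and at 386 in TAD, and so ran opposite to miR-148a-3p and miR-152-3p in TAD. miR-29c-3p had 1.95 CPM in T6, 6.12 in T10, 6.34 to 11.5 in culture and 20.9 in TAD, and both were at least 2-fold higher in TAD than the mean of T6 and T10.

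The patterns of 3 members over the 7 libraries were finally compared with those of 116 other miRNAs that averaged 100 CPM or more, by the root mean square difference of centred log2 levels, in which 0 is an identical pattern. Nearest to miR-148a-3p were miR-125b-2-3p (0.0807), miR-125b-1-3p (0.189) and miR-107-3p (0.190), against a median of 0.698 over all candidates. Nearest to miR-152-3p were miR-199a-3p (0.129) and miR-199b-3p (0.134), paralogs whose reads may be shared between them, and miR-125a-5p (0.161), against a median of 0.741. Nearest to miR-130b-3p were miR-744-5p (0.176), miR-30e-5p (0.205) and miR-93-5p (0.215), against a median of 0.675. miR-93-5p, for example, had 613 CPM in T6, 526 in T10, 182 to 335 in culture and 621 in TAD. Like miR-130b-3p it was lower in each cultured library than in all 3 uncultured ones. Since it was picked for its likeness over these same libraries, the shared order is no separate result. The nearest 3 were the same miRNAs in the same order with median-of-ratios scaling.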

How the data were processed

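The authors sequenced RNA below 100 bp, trimmed adaptors, aligned reads with Bowtie to mm10 and then to miRBase 21, and discarded rare miRNAs. The submitters' processing notes also name FastQC, HTSeq and DESeq, with no versions. The deposited values are a normalised signal, in which the reads of a library are divided by 1 factor. For each library the value of 1 read was found, and all values below 10000 reads were whole within 0.05 read, so the reads were recovered. The step was tested on simulated data, where all reads were recovered in 35 of 35 libraries. CPM, ratios, family shares and arm shares were computed from the reads in Python 3.11.15 with numpy 2.4.6, pandas 2.3.3 and scipy 1.17.1. In ratios a value of 0 was set to 5 reads. Comparisons were planned as ratios with no test. Other scalings, fold thresholds, references and left-out libraries were tried. Every listed arm of both families was named, with the 3 miRNAs nearest in pattern to miR-148a-3p, miR-152-3p and miR-130b-3p. The members and lists were chosen with earlier results of these data known.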

Additional observations from a re-analysis of the deposited data

Results flagged for a closer look

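The difference between supplements had opposite signs from 6.5 and 10.5 dpp for 3 members, beyond counting error at each age. For miR-148a-3p the AlbuMAX I library stood at 0.05 against the KSR library from 6.5 dpp and at -0.43 from 10.5 dpp on the log2 scale, a difference between ages of 0.475. For miR-148b-3p the values were 0.38 and -0.33, a difference of 0.713. For miR-148b-5p they were 2.45 and -0.84, a difference of 3.29, on 12 to 71 reads. With 1 library per condition the difference between ages was not tested. By the same rule 74 of 303 miRNAs above 0 in all 4 cultured libraries had opposite signs (24.4%). By sign alone it was 6 of 11 members, and 47.8% of the 316 listed miRNAs with a ratio at both ages. With median-of-ratios scaling miR-148a-3p (-0.51 and -0.41) and miR-148b-3p (-0.17 and -0.31) were lower with AlbuMAX I at both ages, and the direction of miR-148b-5p stayed opposite (1.89 and -0.82).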

How the results depend on the processing

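No condition had a replicate, so every value may hold variation between animals that was not measured, and TAD had the fewest reads. No paired analysis was possible because each condition was 1 library, with no second replicate number to block on. Unscaled reads shift all ratios of a comparison alike by the library totals, so their counts follow from that construction. Shares of arms did not depend on the scaling. In the comparison of T10 with T6, 1 member passed 2-fold in place of 0 with the trimmed mean of M-values, and 1 passed a 1.5-fold threshold. In TAD, 11 in place of 7 passed in unscaled reads, where miR-130b-5p (-1.61) and miR-301b-3p (-1.70) reversed, and 1 passed 3-fold. For T6-12K the 8 became 3 with median-of-ratios scaling, 3 with the trimmed mean and 4 at 3-fold. For T6-12A the 4 became 1 with median-of-ratios scaling, 1 with the trimmed mean, 7 at 1.5-fold and 0 at 3-fold. For T10-12K the 2 became 0 with median-of-ratios scaling, 0 with the trimmed mean, 5 with the values as deposited, 1 without miR-10b-5p in the totals, 10 in unscaled reads, 9 at 1.5-fold and 0 at 3-fold. For T10-12A the 5 became 0 with median-of-ratios scaling, 0 with the trimmed mean and 2 without miR-10b-5p in the totals. They became 7 with the values as deposited, 11 in unscaled reads and 0 at 3-fold. Smaller changes of the counts in this section are not all listed. Between T6-12A and T6-12K the 2 became 1 with median-of-ratios scaling, with the trimmed mean, with the values as deposited, with 1 CPM added and at 3-fold, and 5 at 1.5-fold. Between T10-12A and T10-12K the 0 became 1 at 1.5-fold. The 10 members lower in all 4 cultured libraries became 3 with median-of-ratios scaling and 1 with the trimmed mean, and 0 higher became 1 with each. Leaving out each cultured library gave 10 to 11 lower and 0 higher, the 11 without T6-12A. Of 210 alternatives for the 28 member ratios past 2-fold, 163 stayed past it and 2 reversed. Beyond the construction of each setting, the cause of these differences was not tested.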
